A study of Mus musculus with 16 samples.

Results

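Complement is a set of plasma and cell-surface proteins that tags microbes, debris and damaged cells, and 9 of its genes were followed here in sorted mouse lung endothelial cells (ECs), which form the inner wall of vessels. The genes were chosen by name from the 43346 genes of the expression table, with earlier results of these libraries known, and all 9 were found and tested. They are C3, Cfb, C4b and C2, which encode soluble components, Cd55 and Serping1, which encode regulators, and C1qa, C1qb and C1qc, which encode the chains of C1q. The C1q chains, known as macrophage products in many tissues, were kept apart from the other 6 throughout.

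RNA was sequenced from FVB mice that, per the study's methods, carried a Col1a1-GFP reporter transgene in every group, so that fibroblasts which transcribe the collagen promoter could be gated out. Young Sham (n = 5) and Young Bleo (n = 4) libraries came from mice 2 months old, and Aged Sham (n = 3) and Aged Bleo (n = 4) libraries from mice 18 months old. Bleo mice received intratracheal bleomycin, a chemotherapy agent used to induce lung injury and scarring, and sham mice received PBS. All lungs were taken at a single time after delivery, which the study places in the early resolution phase of the scarring, not in acute injury. The sorted cells were positive for CD31 and negative for CD45, EpCAM and GFP, a gate that should remove leukocytes, epithelium and collagen-producing fibroblasts. The study's methods treat each library as 1 mouse, and p-values here measure the spread between these libraries.

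The libraries held 20907113 to 71035301 gene counts in all, with 15092 to 17259 genes at 10 counts or more. The 12 endothelial markers summed to 1947 to 3656 FPKM (fragments scaled by transcript length and library total) in the libraries, with all 8 Bleo libraries (1947 to 2677) below all 8 Sham libraries (2742 to 3656), and with all Aged Sham libraries (2742 to 2997) below all Young Sham libraries (3089 to 3656). These splits go with every comparison of Bleo with Sham and with that of the sham groups below. Their part in those comparisons was not tested. The markers did not all move the same way. Of the 12, 2 were called higher and 3 lower in each Bleo group against Young Sham. Their median log2 fold change was -0.03 in Young Bleo and -0.20 in Aged Bleo. Between the sham groups, and between Aged Bleo and Aged Sham, 1 was called higher and 1 lower, with medians of -0.12 and -0.10. The 10 fibroblast markers summed to 12.3 to 48.8 FPKM, the 10 epithelial markers to 70.7 to 664.8 in spite of the EpCAM gate, and the 6 platelet markers to 61.7 to 3239. No epithelial marker was called between the sham groups, and 1 of 10 was called lower in each Bleo group against Young Sham. Macrophage transcripts were present in spite of the CD45 gate. The 6 defining macrophage markers (Adgre1, Csf1r, Cd68, Mrc1, Marco and Siglec1) summed to 1.09 to 1.79 FPKM in Young Sham, 5.90 to 28.5 in Young Bleo, 1.07 to 3.93 in Aged Sham and 9.22 to 71.4 in Aged Bleo. In bulk RNA of this kind, fewer cells of a type and less RNA per cell cannot be told apart. Levels below are DESeq2-normalized counts unless FPKM is named, and a gene was called where the DESeq2 Wald test gave an adjusted p (Benjamini-Hochberg) no higher than 0.05 with a log2 fold change of 0.5 or more in size.

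Complement can be started along several routes. In the classical route, C1q binds antibody or damaged surfaces and its partner proteases cleave C4 and C2. In the lectin route, sugar-binding proteins do the same. In the alternative route, C3 activates itself with the help of factor B, the product of Cfb. All routes meet at C3, whose fragments coat surfaces, call in leukocytes and lead to the membrane attack complex. Cd55 (decay-accelerating factor) takes the C3-cleaving enzymes apart on the cell surface, and Serping1 (C1 inhibitor) blocks the C1 proteases. The liver makes most circulating complement, but ECs, fibroblasts, mesothelium and macrophages also transcribe parts of it.

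By the coordinates of the deposited table, on mm10, Cfb (chr17:34856374-34862518), C2 (chr17:34862604-34898265) and C4b (chr17:34728380-34743882) are close neighbours in the major histocompatibility region, and C3 is further along the same chromosome at chr17:57203970-57228136. C1qb (chr4:136880129-136886187), C1qc (chr4:136889804-136893065) and C1qa (chr4:136895917-136898803) follow each other on chromosome 4. Cd55 is at chr1:130439027-130462744 and Serping1 at chr2:84765387-84775444.

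Promoter windows of 300 bases (250 before to 50 after the gene's start, RefSeq, GRCm38.p6) were found for 4 of the 9 members, C3, Cd55, C1qb and C1qc. The promoter of C3, the component on which all routes converge, is shown here because Cebpb, which encodes a C/EBP factor, was among the genes called between the sham groups. The window is chr17:57228087-57228386 on the minus strand, and capitals mark the single match to the C/EBP letters TTGCNNAA, at position -45 from the start.
C3: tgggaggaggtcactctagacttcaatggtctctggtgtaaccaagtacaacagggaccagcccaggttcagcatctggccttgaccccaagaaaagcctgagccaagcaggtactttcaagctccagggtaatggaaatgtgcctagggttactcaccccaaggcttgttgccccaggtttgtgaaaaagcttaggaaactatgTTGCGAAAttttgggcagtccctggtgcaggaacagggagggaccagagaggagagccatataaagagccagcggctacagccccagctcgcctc
Of 32817 such windows, 10.8% held TTGCNNAA on either strand. Letters for an interferon-stimulated response element (GAAA, any 2 bases, then GAAA, in 3.43% of windows), a STAT site (TTCNNNGAA, in 8.29%) and an NF-kB site (GGG, any 2 bases, then TTTCC, in 1.63%) had no match in the C3 window. A match is a description of letters only, no match says only that the letters are not in this window, and the letters of no motif contain those of another.

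C3 was lowest in young uninjured ECs. Young Sham replicates 21 to 25 held 1075, 1096, 1624, 524 and 588 normalized counts of C3, and Aged Sham replicates 13, 14 and 15 held 2246, 5032 and 3151. Young Bleo replicates 17 to 20 held 3780.0, 1747, 2409 and 3852, and Aged Bleo replicates 1, 2, 3 and 5 held 2273, 1637, 3079 and 2093. Every library of the other 3 groups was above every Young Sham library, although the lowest of them, Aged Bleo replicate 2, exceeded Young Sham replicate 23 by little. The ranges of Aged Sham, Young Bleo and Aged Bleo overlapped each other. The order of the means ran from Young Sham (981 ± 447, SD, n = 5) through Aged Bleo (2270.3 ± 602, SD, n = 4) and Young Bleo (2947 ± 1040.0, SD, n = 4) to Aged Sham (3476 ± 1421, SD, n = 3).

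Cfb encodes the protease precursor of the alternative route. Its Young Sham libraries held 481, 644, 533, 370 and 579 normalized counts, and its Aged Sham libraries held 767, 2081 and 1756. Young Bleo libraries held 2056, 1524, 1069 and 1647, and Aged Bleo libraries held 3658, 1881, 2146 and 1578. The Young Sham libraries lay below all others, and Aged Bleo had the highest mean of the 4 groups (2316 ± 925, SD, n = 4). Aged Sham, Young Bleo and Aged Bleo overlapped, and Aged Bleo replicate 1, the library with the most macrophage RNA, had the most Cfb. A read-through gene model, Gm20547 (chr17:34856412-34882042), spans Cfb and part of C2, and its count was 99.98% to 125% of that of Cfb in every library. How reads were split between these gene models is not stated, so the counts of Cfb and C2 are uncertain to that extent.

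C4b and C2 form the C3-cleaving enzyme of the classical and lectin routes. C4b was at 600, 394, 445, 110.0 and 467 normalized counts in Young Sham and at 997, 1883 and 1852 in Aged Sham. It was at 1358, 1201, 834 and 2122 in Young Bleo and at 935, 650.1, 2227 and 1409 in Aged Bleo. Young Sham replicate 24 held the least C4b, and again no Young Sham library reached the level of any library of the other groups. C4b has a near-identical copy, C4a, which took few counts (group means from 7.13 to 19.4 normalized counts). The rule for reads that fit both copies is not stated, so C4b is uncertain in that respect.

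C2 was the least abundant of the 4 soluble components by FPKM. Its Young Sham libraries held 152, 110.4, 111, 83.1 and 82.1 normalized counts and its Aged Sham libraries held 276, 543 and 638. Its Young Bleo libraries held 749, 244, 518 and 458 and its Aged Bleo libraries held 245, 228, 484 and 295. The gap between Young Sham and the rest was again complete. On the FPKM scale, which allows levels of different genes to be compared, the Young Sham means were 1.91 for C3, 1.83 for Cfb, 0.706 for C4b and 0.276 for C2.

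The regulators were laid out differently. Cd55 held 277, 317, 342, 333 and 553 normalized counts in Young Sham and 428, 847 and 419 in Aged Sham. It held 491, 265, 709 and 573 in Young Bleo and 724, 1013, 602 and 287 in Aged Bleo. All 4 groups overlapped, with Young Sham replicate 25 apart from the other 4 of its group, and no neighbouring groups in the order of the means were separated. Antisense transcript Gm16083 overlaps Cd55 but held no more than 35 counts in any library.

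Serping1 was the most abundant of the 9 genes in uninjured ECs, with a mean of 17.3 ± 2.28 FPKM in Young Sham (SD, n = 5). Its Young Sham libraries held 4149, 3904, 4722, 3978 and 3510.1 normalized counts and its Aged Sham libraries held 9456, 6959 and 10314. Its Young Bleo libraries held 5325, 3930.3, 5618 and 6141 and its Aged Bleo libraries held 2005, 2115, 5516 and 4306. The Aged Sham libraries were above every library of the other groups. The Aged Bleo libraries were split, with replicates 1 and 2 below every other library of the series and replicates 3 and 5 within the range of the young groups. The plot of normalized counts by library shows these levels.

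**Figure D1:**
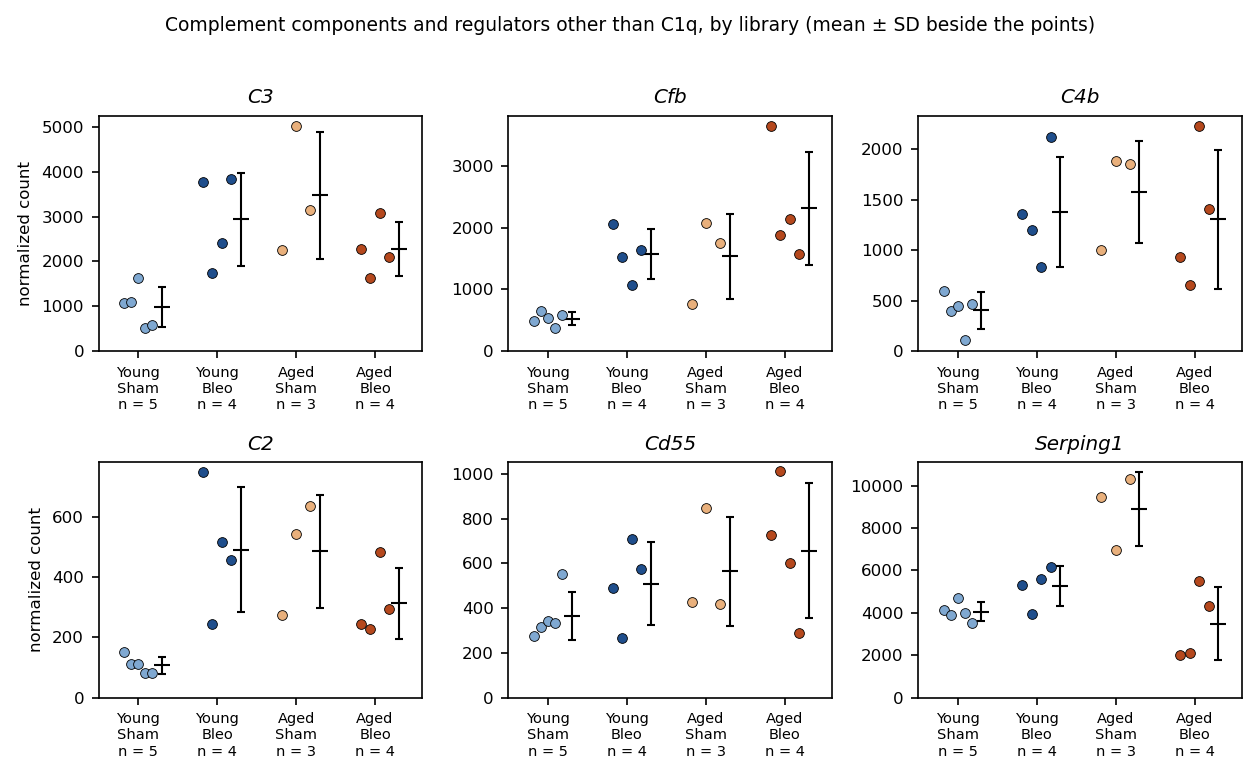
Normalized counts (vertical axes, linear, from 0) of the 6 members other than C1q in each library of the 4 groups, with the group mean ± SD beside the points. C3, Cfb, C4b and C2 were lowest in all 5 Young Sham libraries, whereas Serping1 was highest in the 3 Aged Sham libraries and Cd55 overlapped between all groups.

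The first question of the design was what age alone changes. Between the sham groups, aged ECs had higher C3, Cfb, C4b, C2 and Serping1 than young ECs, and 5 of the 6 members other than C1q were called higher, where 2.24% of the 18515 genes tested were called higher. C2 had the largest difference, 2.18 on the log2 scale (SE 0.38, adjusted p = 4.2e-06). C4b followed at 1.97 (SE 0.46, adjusted p = 0.0020), then C3 at 1.83 (SE 0.37, adjusted p = 0.00020), Cfb at 1.56 (SE 0.33, adjusted p = 0.00038) and Serping1 at 1.14 (SE 0.29, adjusted p = 0.0064). For these 5 genes every Aged Sham library was above every Young Sham library, a separation that 4.95% of tested genes had in this direction. Cd55 had a log2 fold change of 0.63 (95% interval -0.14 to 1.41, adjusted p = 0.47) and was not called. The median over the 6 genes was 1.69, and over all tested genes it was 0.02.

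The edgeR quasi-likelihood test also called C3 (adjusted p = 0.024), Cfb (adjusted p = 0.026) and C2 (adjusted p = 0.0093) in this comparison, where it called 0.699% of its tested genes higher. It did not call C4b (adjusted p = 0.053) or Serping1 (adjusted p = 0.066). In limma voom C3 and C2 were called, and in limma trend C2 alone on log2(FPKM + 0.1) and none of the 6 on log2(FPKM + 1), where the adjusted p of C3 was 0.051. The call of Serping1 was also lost without Aged Sham replicate 15 (adjusted p = 0.057). C3 stands on the innate immunity gene list that the study drew up on these same libraries, so its direction here is not independent evidence.

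Transcripts of several other cell types moved with the sham difference, beside the lower endothelial sum of every Aged Sham library. Of the 12 endothelial markers themselves, 1 was called higher and 1 lower. Of 8 mesothelial markers, 3 were called higher in Aged Sham than in Young Sham (Msln, Upk3b and Lrrn4). Msln, which encodes mesothelin of the pleural lining, held 0 to 119 normalized counts in Young Sham and 342 to 1448 in Aged Sham. The whole list summed to 18.5 to 39.0 FPKM in Young Sham and 22.8 to 44.3 in Aged Sham, with Wt1 at 0 in all 5 Young Sham libraries. Of 6 platelet markers 3 were called higher, and their sum was 599 to 3239 FPKM in Aged Sham against 262 to 491 in Young Sham, highest in Aged Sham replicate 14, the library with the most C3. Of 8 pericyte and smooth muscle markers 3 were called lower, and all 8 had fitted values below 0, with a sum of 27.7 to 45.8 FPKM in Aged Sham against 46.8 to 99.6 in Young Sham. Of the 20 macrophage markers 3 were called higher (81.0 to 240.7 FPKM against 41.5 to 64.5), but none of the 6 defining ones. Of 7 tested markers of other leukocytes 2 were called higher, Cd79a of B cells and S100a8 of neutrophils, with overlapping sums, and 1 of 10 fibroblast markers was called higher and 1 lower. The part of RNA from these cells in the differences of the complement genes was not tested.

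Young ECs after bleomycin showed the same 4 soluble components at higher levels than young sham ECs. C2 rose by 2.19 (SE 0.35, adjusted p = 6.7e-08), C4b by 1.77 (SE 0.42, adjusted p = 0.00062), Cfb by 1.59 (SE 0.30, adjusted p = 1.0e-05) and C3 by 1.59 (SE 0.34, adjusted p = 0.00013), on the log2 scale in the DESeq2 test. That made 4 of 6 called higher, where 7.57% of all tested genes were called higher in this comparison. The Young Bleo and Young Sham libraries did not overlap for any of these 4, a separation that 7.62% of tested genes had in this direction. The same 4 were called by edgeR, which called 5.69% of its tested genes higher, and with any single library left out. The regulators were not called, at 0.48 for Cd55 (95% interval -0.23 to 1.19, adjusted p = 0.42) and 0.37 for Serping1 (95% interval -0.15 to 0.90, adjusted p = 0.39).

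Mesothelial markers stood beside this result as well, with 6 of 8 called higher in Young Bleo than in Young Sham. Msln held 607 to 2189 normalized counts in Young Bleo, most in replicate 17, which also had the most C2. The summed list was 23.8 to 69.6 FPKM in Young Bleo, a range that overlapped that of Young Sham. Pericyte and smooth muscle markers went the other way, with 4 of 8 called lower and a sum of 18.3 to 47.5 FPKM in Young Bleo, as did 2 of 10 fibroblast markers. Platelet markers were at 103 to 244 FPKM in Young Bleo, below the 262 to 491 of Young Sham, with all 6 fitted values below 0 and none called. Of 7 tested markers of other leukocytes 2 were called higher. Macrophage markers were higher, as given for C1q. Without Young Bleo replicates 17 and 18 and Aged Bleo replicates 1 and 2, in each group the pair with the most macrophage RNA and chosen after seeing the data, all 4 components were still called, at 1.69 for C3, 1.39 for Cfb, 1.89 for C4b and 2.19 for C2 on the log2 scale. The Young Bleo libraries that remain in this fit still held 13.4 and 5.90 FPKM of the defining macrophage markers, above all Young Sham libraries. The part of RNA from any of these cells in the result was not tested.

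Aged ECs after bleomycin were compared first with young sham ECs, as in the study. The same 4 components were called higher among 6 members, with Cfb rising most, by 2.15 on the log2 scale (SE 0.30, adjusted p = 5.8e-10). C4b rose by 1.70 (SE 0.42, adjusted p = 0.0015), C2 by 1.54 (SE 0.35, adjusted p = 0.00041) and C3 by 1.21 (SE 0.34, adjusted p = 0.0076), where 6.58% of all tested genes were called higher by DESeq2. For each of the 4 the groups did not overlap, as for 5.82% of tested genes in this direction, and each was called by edgeR (4.2% of its tested genes called higher) and with any single library left out. On log2(FPKM + 1) limma trend did not call C2 (adjusted p = 0.087) or C3 (adjusted p = 0.056). Cd55 was at 0.85 (SE 0.36, adjusted p = 0.12) and was called only without Aged Bleo replicate 5 (adjusted p = 0.019). Serping1 was at -0.22 (SE 0.27, adjusted p = 0.71). Of the 8 mesothelial markers 3 were called higher here too, and Msln held 35.4 to 782 normalized counts in Aged Bleo, a range that overlapped that of Young Sham. All 8 pericyte and smooth muscle markers were called lower, with a sum of 12.5 to 19.7 FPKM in Aged Bleo, and 6 of 10 fibroblast markers were called lower. Of 7 tested markers of other leukocytes 2 were called higher, and all 7 had fitted values above 0, with the list at 3.98 to 21.9 FPKM in Aged Bleo against 0.555 to 3.49 in Young Sham. Macrophage markers were again higher, and the part of these cells in the result was not tested. This comparison and the preceding ones share the 5 Young Sham libraries, so their values are not independent of each other.

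Against their own sham libraries, aged ECs showed no called rise of any soluble component after bleomycin. The fitted log2 fold changes were -0.61 for C3 (95% interval -1.38 to 0.15), -0.64 for C2 (-1.41 to 0.13), -0.27 for C4b (-1.21 to 0.66) and 0.59 for Cfb (-0.08 to 1.27). Their adjusted p-values by DESeq2 ran from 0.35 for Cfb to 0.84 for C4b, none had an unadjusted p under 0.05, and edgeR called none of them, but the intervals do not show that the groups were alike. Serping1 was the 1 member of the 6 called, where 5.83% of all tested genes were called in either direction. It fell by 1.35 on the log2 scale (SE 0.30, adjusted p = 0.00091 by DESeq2, 0.046 by edgeR, which called 0.349% of its tested genes lower), with all 4 Aged Bleo libraries below all 3 Aged Sham libraries, as for 6.14% of tested genes in this direction.

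The size of the Serping1 difference depended on which Aged Bleo libraries were read. Without the 4 macrophage-rich libraries it fell by 0.85 and was still called (DESeq2 adjusted p = 0.012). Fibroblast markers moved alongside, with 4 of 10 called lower in Aged Bleo than in Aged Sham and a summed level of 12.3 to 18.6 FPKM in Aged Bleo against 20.7 to 48.8 in Aged Sham. Of 6 platelet markers 4 were called lower, at 61.7 to 464.7 FPKM in Aged Bleo against 599 to 3239 in Aged Sham, and of 8 pericyte and smooth muscle markers 2 were called lower. Of 20 macrophage markers 12 were called higher. The part of RNA from these cells in the Serping1 result was not tested.

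Injured aged and injured young ECs did not differ by a called amount in any of the 9 members, in a comparison in which 1.03% of all tested genes were called by DESeq2 and 0.0437% by edgeR, which called none of the 9 either. None of the 6 members other than C1q was separated between these groups. At an unadjusted p, Serping1 had the smallest value (0.035) at -0.59 on the log2 scale (95% interval -1.14 to -0.04), and it was the only one of the 9 under 0.05.

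The design also allows the bleomycin response itself to be compared between ages, as the aged response minus the young response. For C2 this difference was -2.83 on the log2 scale (SE 0.52, DESeq2 adjusted p = 0.00023), from a rise of 2.19 in young ECs and a fitted -0.64 in aged ECs. For C3 it was -2.20 (SE 0.52, adjusted p = 0.016), from 1.59 and -0.61. For Serping1 it was -1.73 (SE 0.40, adjusted p = 0.014), from 0.37 and -1.35. These 3 of the 6 members were called lower, where 0.247% of the 19440 genes tested were called lower. C4b had a value of the same size that was not called (-2.05, SE 0.64, adjusted p = 0.15), whereas Cfb was at -1.002 (SE 0.46, adjusted p = 0.52) and Cd55 at -0.27 (SE 0.55, adjusted p = 0.93).

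None of these differences of response was called by edgeR, whose adjusted p was 0.13 for C2 and 0.34 for C3 and for Serping1 and which called 1 gene in all, 0.00546% of those it tested. At an unadjusted p in DESeq2, 5 of the 6 were under 0.05. The DESeq2 call of C3 was lost without Aged Sham replicate 14, without Young Bleo replicate 17 and without the 4 macrophage-rich libraries (-2.11, adjusted p = 0.065), and that of Serping1 without Young Bleo replicate 19 (adjusted p = 0.052). The call of C2 held in each of these fits, and C4b was called without Aged Bleo replicate 3 (adjusted p = 0.046). The mesothelial genes Msln (-5.67, adjusted p = 0.038) and Upk3b (-4.73, adjusted p = 0.012) were called lower in the same contrast, among 2 of 8 mesothelial markers, as was 1 of 10 fibroblast markers, and their part in the values of C3 and C2 was not tested.

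**Figure D2:**
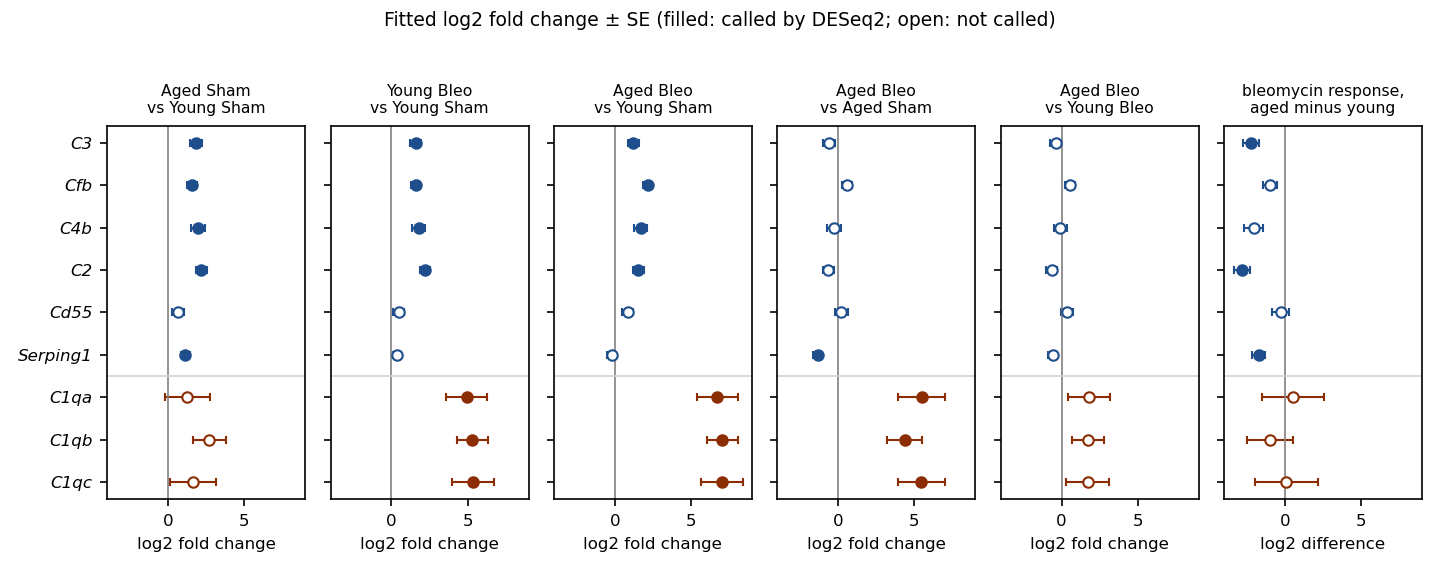
Fitted log2 fold change (horizontal axes) ± SE of each member in the 5 pairwise comparisons and, in the last panel, the log2 difference of the bleomycin responses, with filled points for DESeq2 calls and open points for values not called. The soluble components stand right of 0 in the 3 comparisons against Young Sham and near 0 or left of it in the panels of Aged Bleo against Aged Sham and Young Bleo, Cfb excepted, whereas the C1q chains stand furthest right in every comparison of a Bleo group with a Sham group.

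C3, C4b and C2 had courses close to each other across the 16 libraries, whereas Cfb was further from them. Likeness was measured as the root mean square difference between 2 genes' log2(normalized count + 1) values, each centred on its own mean, so that 0 is an identical course. Among the 13774 genes whose mean normalized count reached 50, the gene closest to C3 was C2 (0.40), followed by Ifit1 (0.50), an interferon-induced gene, and C4b (0.52). For C4b the closest were C3 (0.52), the immediate early gene Fos (0.56) and C2 (0.59). For C2 they were C3 (0.40), C4b (0.59) and the overlapping model Gm20547 (0.62). The libraries share depth, sort and injury state, so these values describe these 16 libraries only.

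Cfb was at 0.62 from C3, 0.70 from C2 and 0.70 from C4b. Apart from the overlapping Gm20547 (0.08), its closest genes were Socs3 (0.35), a cytokine-induced inhibitor of JAK-STAT signalling, and Trf (0.41), which encodes transferrin. Socs3 was itself called higher than in Young Sham in all 3 other groups, most in Aged Bleo (2.42, SE 0.27, adjusted p = 1.8e-15 by DESeq2), the group in which Cfb also had its highest mean. Cd55 was closest to Sav1 (0.37), Nus1 (0.38) and Arl4a (0.39). Serping1 was closest to Bgn (0.31), Lrrc61 (0.31) and Rarres2 (0.33), and Bgn encodes biglycan, a matrix proteoglycan made by fibroblasts among other cells.

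Factors known to act on complement promoters were read from a list of 10 genes, of which 2 were called higher, Cebpb and Erg, and 2 lower, Nfkb1 and Nr1h3, with age (Aged Sham against Young Sham), where 2.24% of all tested genes were called higher and 1.11% lower. Cebpb rose by 1.34 on the log2 scale (SE 0.25, adjusted p = 1.7e-05) between the sham groups and by 0.80 (SE 0.23, adjusted p = 0.0068) in Aged Bleo against Young Sham, in the DESeq2 test. In the latter comparison 5 were called higher and 1 lower (6.58% and 3.14% of all tested genes), Cebpd among the former (1.24, SE 0.33, adjusted p = 0.0044) with Spi1, Irf8 and Erg, and Nr1h3, which encodes the sterol-sensing receptor LXR alpha, the latter (-1.46, SE 0.24, adjusted p = 1.3e-07). In Young Bleo against Young Sham Spi1 and Erg were called higher and Rela and Nr1h3 lower, beside 7.57% and 6.35% of all tested genes. Of 22 interferon and NF-kB response genes, 3 were called higher in Aged Sham, and 2 higher and 1 lower in Young Bleo, each against Young Sham. In Aged Bleo against Young Sham 2 of them were called higher. Cxcl10, an interferon-induced chemokine, was in each of these 3 sets, at 3.74 in Aged Sham, 2.06 in Young Bleo and 3.65 in Aged Bleo. The median log2 fold change of the 22 genes was 0.27, -0.02 and 0.16 in the same order. In Young Bleo 9 of the 22 had fitted values above 0. As for C3, the study lists Cxcl10 among innate immunity genes from these same libraries, so its direction is not independent evidence.

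**Figure D3:**
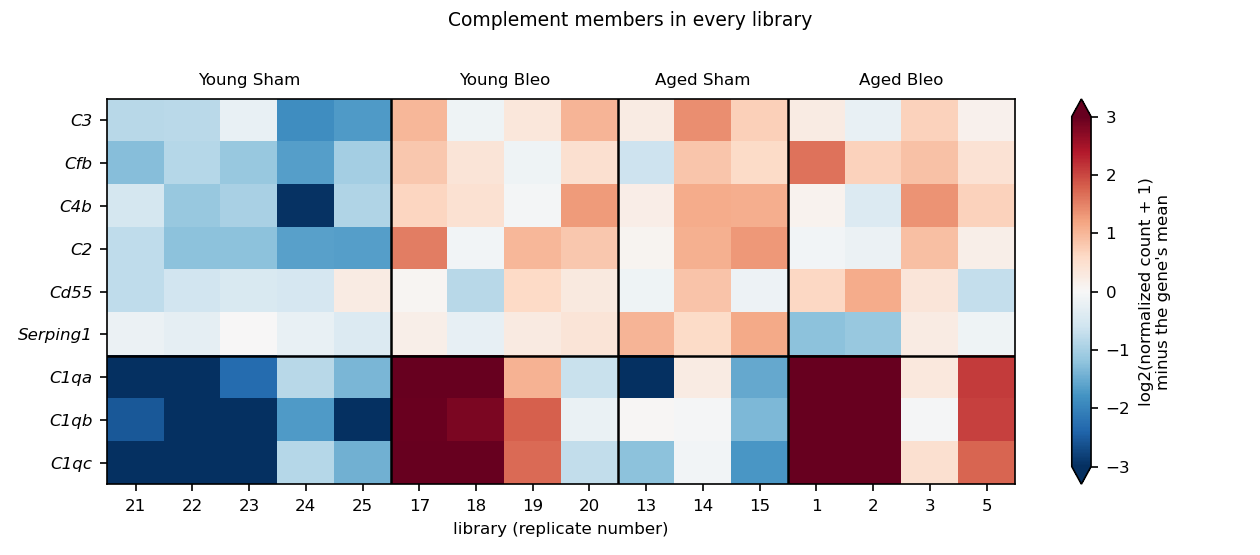
log2(normalized count + 1) of each member minus its mean over the 16 libraries (colour, limited to 3 either way), with libraries in columns by group and replicate number. C3, Cfb, C4b and C2 are below their means in all 5 Young Sham libraries, and the C1q rows peak in Aged Bleo replicates 1 and 2 and Young Bleo replicates 17 and 18.

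The C1q chains followed another course. C1q is assembled from the products of the 3 neighbouring genes, and macrophages and dendritic cells are its best known source. C1qa held 0, 0, 8.20, 24.6 and 16.6 normalized counts in Young Sham and 2.00, 53.1 and 14.6 in Aged Sham. It held 455, 623, 92.6 and 27.8 in Young Bleo and 2060.5, 1864, 55.2 and 192 in Aged Bleo. Each Bleo group thus held a pair of high and a pair of low libraries, and the low pair of Young Bleo reached down to the range of Aged Sham.

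C1qb held 13.2, 8.24, 4.10, 24.6 and 0 normalized counts in Young Sham and 83.9, 80.8 and 32.0 in Aged Sham. It held 646, 587, 288 and 71.9 in Young Bleo and 2460, 2485, 80.4 and 343 in Aged Bleo. C1qb alone of the 3 chains was above all Young Sham libraries in every Aged Sham library. C1qc held 0, 0, 0, 21.1 and 13.7 in Young Sham and 15.99, 36.9 and 10.97 in Aged Sham, and 562, 425, 130.0 and 23.2 in Young Bleo and 1804, 1742, 55.2 and 134 in Aged Bleo. The same libraries were high for all chains, Aged Bleo replicates 1 and 2 foremost and Young Bleo replicates 17 and 18 next.

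The promoters of C1qb (chr4:136886151-136886450) and C1qc (chr4:136892865-136893164), both on the minus strand, are shown because these chains moved together and because macrophage genes are known targets of the ETS factor PU.1, encoded by Spi1. Capitals mark matches to the ETS letters AGGAAG or, on the other strand, CTTCCT.
C1qb: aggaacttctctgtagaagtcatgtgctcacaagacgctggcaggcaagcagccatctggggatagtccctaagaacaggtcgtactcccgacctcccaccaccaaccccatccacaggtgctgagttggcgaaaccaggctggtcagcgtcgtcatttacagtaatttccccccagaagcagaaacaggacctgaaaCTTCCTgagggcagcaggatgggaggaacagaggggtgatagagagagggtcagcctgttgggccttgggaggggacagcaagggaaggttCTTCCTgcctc
C1qc: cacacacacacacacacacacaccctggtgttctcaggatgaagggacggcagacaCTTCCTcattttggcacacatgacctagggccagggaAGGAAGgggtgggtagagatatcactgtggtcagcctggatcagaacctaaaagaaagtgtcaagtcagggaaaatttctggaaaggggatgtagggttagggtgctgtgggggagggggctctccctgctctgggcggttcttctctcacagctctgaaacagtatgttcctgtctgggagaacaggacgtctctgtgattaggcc
Each window held 2 matches, at positions -52 and 39 from the start in C1qb and at -194 and -157 in C1qc, and 35.4% of the 32817 windows held at least 1. The Cd55 window held no match to any of the 5 motifs. Spi1 was called higher in Young Bleo (2.98, SE 0.66, adjusted p = 0.00019) and in Aged Bleo (4.21, SE 0.66, adjusted p = 3.3e-08) than in Young Sham by DESeq2. Erg, which encodes another ETS factor, was also called higher in both, and macrophage markers rose in the same comparisons. The letters do not tell ETS factors apart, and whether any of them acts on these windows was not tested.

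After bleomycin all 3 chains were called higher in young ECs, against 7.57% of all tested genes. C1qa rose by 4.93 (SE 1.35, adjusted p = 0.0039), C1qb by 5.30 (SE 1.01, adjusted p = 8.9e-06) and C1qc by 5.35 (SE 1.38, adjusted p = 0.0018) on the log2 scale, in the DESeq2 test. Against the same Young Sham libraries, Aged Bleo was higher by 6.73 for C1qa (SE 1.35, adjusted p = 4.4e-05), 7.06 for C1qb (SE 1.00, adjusted p = 9.0e-10) and 7.06 for C1qc (SE 1.38, adjusted p = 2.2e-05). These 3 calls in Aged Bleo stand beside 6.58% of all tested genes called higher. No library overlapped in these comparisons, as for 7.62% of tested genes in Young Bleo and 5.82% in Aged Bleo in this direction, and the calls held in edgeR and with any single library left out. They did not all hold without Young Bleo replicates 17 and 18 and Aged Bleo replicates 1 and 2, the libraries with the most macrophage RNA and also the most C1q. In that fit, chosen after seeing the data, C1qb alone was called, at 4.16 in Young Bleo (adjusted p = 0.00061) and 4.397 in Aged Bleo (adjusted p = 0.00086) by DESeq2. C1qa was then at 2.62 and 3.66 (adjusted p = 0.31 and 0.18) and C1qc at 3.46 and 3.76 (adjusted p = 0.13 and 0.17). In limma voom none of the 3 was called in either comparison, at adjusted p from 0.18 to 0.33.

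Between Aged Bleo and Aged Sham the rise was 5.48 for C1qa (SE 1.53, adjusted p = 0.011), 4.36 for C1qb (SE 1.12, adjusted p = 0.0050) and 5.45 for C1qc (SE 1.55, adjusted p = 0.013), all called by DESeq2, where 3.39% of tested genes were called higher. This result rested on few libraries. Aged Bleo replicate 3 held less C1qb than Aged Sham replicates 13 and 14, edgeR called none of the chains (adjusted p from 0.066 to 0.082), and without Aged Bleo replicate 1 or without Aged Sham replicate 15 none was called by DESeq2. C1qa and C1qc were also lost without Aged Bleo replicate 2 and without Aged Sham replicate 13. Without the 4 macrophage-rich libraries none was called, at 1.70 to 2.41 (DESeq2 adjusted p from 0.52 to 0.60).

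Between the sham groups none of the chains was called, at 1.25 for C1qa, 2.70 for C1qb and 1.61 for C1qc on the log2 scale (DESeq2 adjusted p from 0.18 to 0.76). C1qb alone had an unadjusted p under 0.05 (0.014), and edgeR called none of them either. C1qb was called in the fit without the 4 macrophage-rich Bleo libraries (2.69, DESeq2 adjusted p = 0.037), although these are in neither group. None was called between Aged Bleo and Young Bleo, where the fitted values were 1.80, 1.75 and 1.71 with intervals that all included 0 (C1qa, 95% interval -0.96 to 4.56). Nor was the difference of the bleomycin responses called for any chain (DESeq2 adjusted p from 0.91 to 0.99, no unadjusted p under 0.05, and none called by edgeR), with values of 0.55 for C1qa, -0.95 for C1qb and 0.10 for C1qc and standard errors of 1.51 to 2.07.

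C1q and macrophage transcripts were highest in the same 4 libraries, but below these their order differed. The summed FPKM of the 3 chains was 0.0778 to 0.532 in Young Sham, 1.12 to 13.6 in Young Bleo, 0.470 to 1.29 in Aged Sham and 1.58 to 51.3 in Aged Bleo. The defining macrophage markers were highest in the same libraries, at 71.4 and 45.9 FPKM in Aged Bleo replicates 1 and 2 and at 28.5 and 24.0 in Young Bleo replicates 17 and 18. Aged Bleo replicate 3 held more of these markers than replicate 5 (12.0 against 9.22 FPKM) but less C1q (1.58 against 5.74), and Young Sham replicate 24 had the least of them in its group and the most C1q. Of the full list of 20 macrophage markers, 10 were called higher and 1 lower in Young Bleo and 13 higher in Aged Bleo, each against Young Sham, and 12 higher in Aged Bleo against Aged Sham. Of the 6 defining markers, 2, 3 and 3 were called higher in these comparisons, with median log2 fold changes of 2.05, 4.13 and 3.68. Among them Cd68, a lysosomal protein of macrophages, rose by 4.60 (SE 0.69), 5.57 (SE 0.69) and 4.08 (SE 0.78). None of the 6 defining markers was at 0 in all libraries of any group, and the part of macrophage RNA in the C1q values was not tested.

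**Figure D4:**
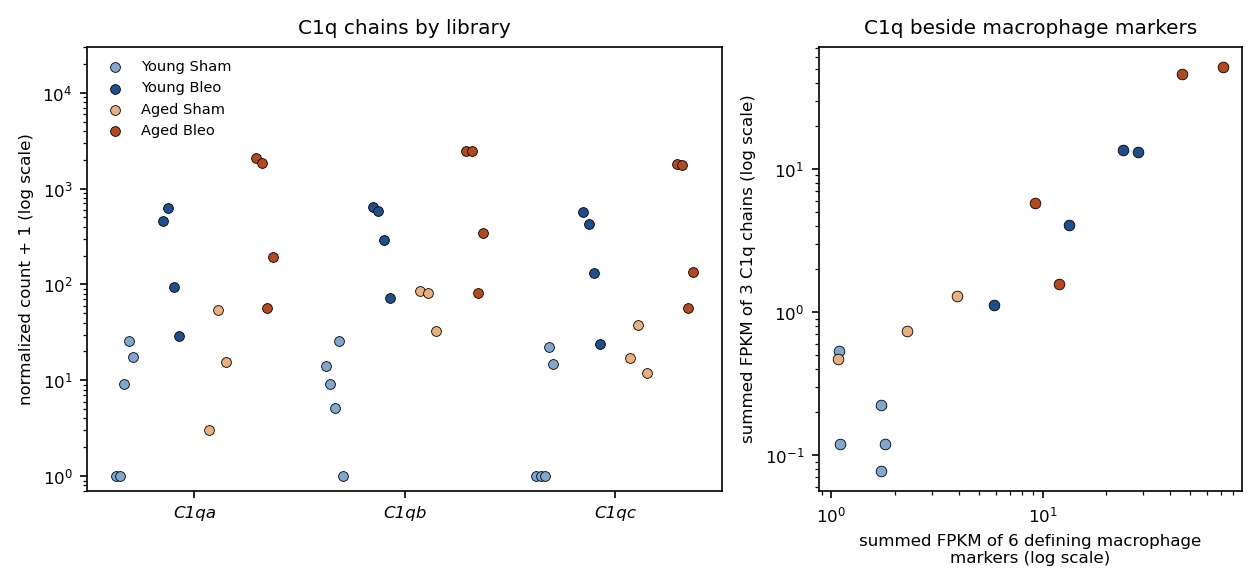
Left, normalized count + 1 of the C1q chains in each library (log scale), and right, summed FPKM of the 3 chains against summed FPKM of 6 defining macrophage markers, 1 point per library (log scales). Aged Bleo replicates 1 and 2 are the upper right pair at 45.9 and 71.4 FPKM of macrophage markers, and the Young Sham libraries lie at the lower left.

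The balance of the chains could be read where counts were high. In Aged Bleo replicates 1 and 2, with 8066 and 8264 C1q counts, C1qa made up 38.3% and 36.0% of the summed C1q FPKM, C1qb 43.7% and 45.9% and C1qc 18.1% in both. In Young Bleo replicates 17 and 18 the C1qb share was 44.9% and 39.7%. It was 62.8% and 63.0% in Young Bleo replicates 19 and 20 (463 and 159 counts), and 47.5% and 55.4% in Aged Bleo replicates 3 and 5 (318 and 825 counts). Aged Sham replicate 14 stood at 51.4% (148 counts), and the remaining Aged Sham and all Young Sham libraries held 6 to 63 C1q counts, too few for a share to be read. By likeness over the 16 libraries, C1qa was closest to C1qc (1.05), then to Ccl9 (1.32) and Clec12a (1.36), both genes of myeloid cells. The differences of C1qa from the 6 other members were larger, from 2.71 for Cfb to 3.66 for Serping1.

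A list of 46 further complement genes gave the surroundings of these members, of which 36 entered the pairwise tests. In Aged Sham against Young Sham 2 were called higher and 0 lower, where 3.35% of all tested genes were called in either direction. Cd59b, a membrane inhibitor of the attack complex, rose by 2.25 (SE 0.62, adjusted p = 0.014 by DESeq2). The other was Itgam, the alpha chain of complement receptor CR3, which held 0 to 2.05 normalized counts in Young Sham and 3.46 to 33.8 in Aged Sham. Neither was called by edgeR. Both were called in the fit without the 4 macrophage-rich libraries. Those are Bleo libraries in neither of the compared groups, so that fit cannot test macrophage RNA in this comparison.

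In Young Bleo against Young Sham 7 were called higher and 2 lower, where 13.9% of tested genes were called in either direction. Properdin (Cfp), which stabilizes the alternative C3 convertase, rose by 1.85 (SE 0.54, adjusted p = 0.0065), Cd59a by 0.94 (SE 0.24, adjusted p = 0.0019) and Cd93, a surface protein of ECs and myeloid cells, by 0.76 (SE 0.25, adjusted p = 0.020), in the DESeq2 test. Itgax, the alpha chain of CR4, rose by 3.55 (SE 0.92), and the receptors C3ar1 and C5ar1 and the chain Itgam were the others called higher. Clusterin (Clu) fell by 0.55 (SE 0.20, adjusted p = 0.042) and vitronectin (Vtn) by 2.72 (SE 0.69, adjusted p = 0.0015), both of them inhibitors of the attack complex. Of 8 pericyte and smooth muscle markers 4 were called lower in the same comparison, and their part in these values was not tested. Without the 4 macrophage-rich libraries, which leaves 2 libraries in each Bleo group, Cd93, Itgam and Vtn were still called. In that fit Itgax was at 3.35 (adjusted p = 0.077), C5ar1 at 2.69, C3ar1 at 2.73 against 4.63, Cfp at 1.06, Cd59a at 0.59 and Clu at -0.38, none of them called.

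In Aged Bleo against Young Sham 8 were called higher and 1 lower, where 9.72% of tested genes were called in either direction. Cfp rose by 2.77 (SE 0.53, adjusted p = 1.7e-05), C3ar1, the receptor of the C3a fragment, by 6.04 (SE 1.43, adjusted p = 0.00079), and Itgb2, the shared chain of CR3 and CR4, by 1.42 (SE 0.48, adjusted p = 0.035), in the DESeq2 test. Vtn fell by 4.54 (SE 0.70, adjusted p = 1.8e-08), from 640.1 ± 182 normalized counts in Young Sham (SD, n = 5) to 27.6 ± 24.7 in Aged Bleo (SD, n = 4). All 8 pericyte and smooth muscle markers were called lower in the same comparison, and their part in the Vtn value was not tested. Itgax and Cd93 rose by 4.38 (SE 0.92) and 0.78 (SE 0.25), and C5ar1, Itgam and Fcna were the others called higher. Cfp, C3ar1, C5ar1, Itgam, Itgax and Itgb2 are expressed by macrophages and other myeloid cells, whose markers were higher in the same libraries, and that part was not tested. Of these 9, Itgam and Vtn were still called without the 4 macrophage-rich libraries. The values of the others in that fit, not called, were 1.22 for Itgb2, 4.25 for C3ar1, 3.09 for Itgax, 2.89 for C5ar1, 1.32 for Cfp and 0.22 for Cd93.

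Aged Bleo against Aged Sham gave 2 called higher, Cfp and Cd93, and 4 called lower, Cd59a, Cd59b, Clu and Vtn, among the same 36 genes, where 5.83% of all tested genes were called in either direction. Of 8 pericyte and smooth muscle markers 2 were also called lower in this comparison, and their part in the Vtn value was not tested. Of the complement genes called here, only Cd59b was called without the 4 macrophage-rich libraries. Cd59a was then at -1.02 (DESeq2 adjusted p = 0.073) against -0.98 with all libraries, Clu at -0.63 against -0.78, Vtn at -1.81 against -2.58, Cfp at 1.66 against 3.12 and Cd93 at 0.37 against 0.93. Cd59a differed between ages after injury. Young Bleo libraries held 1553, 1039, 865 and 797 normalized counts and Aged Bleo libraries held 408, 531, 368 and 516, beside 486 to 676 in Young Sham and 573 to 1229 in Aged Sham. The Bleo groups did not overlap, as for 2.27% of tested genes in this direction, and Cd59a was the 1 gene of the 36 called between them, lower in Aged Bleo by 1.22 on the log2 scale (SE 0.25, adjusted p = 0.00092 by DESeq2, 0.10 by edgeR), where 1.03% of all tested genes were called. Without the 4 macrophage-rich libraries it was at -0.91 and not called (DESeq2 adjusted p = 0.15). The difference of the bleomycin responses was -1.92 for Cd59a (SE 0.37, adjusted p = 0.00045 by DESeq2, 0.13 by edgeR), the 1 gene called of the 37 tested in that contrast, where 0.381% of all tested genes were called in either direction. Without the 4 macrophage-rich libraries it was at -1.61 and still called (DESeq2 adjusted p = 0.021).

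**Figure D5:**
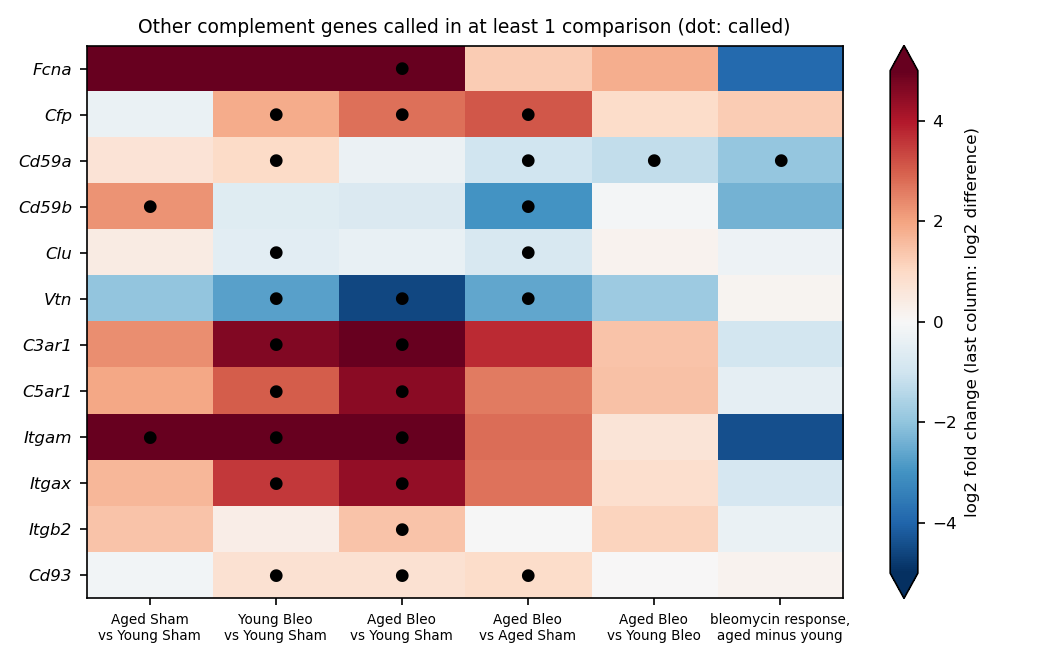
Fitted log2 fold change (colour, limited to 5 either way; the last column is the log2 difference of the bleomycin responses) of the 12 listed complement genes called in at least 1 comparison, with a dot for each DESeq2 call. Fitted values of Fcna and Itgam depend on Young Sham libraries at or near 0 counts and are not sizes of effect, and Cd59a is the one row with a dot in the last 2 columns.

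Several of the remaining listed genes were not detected. C8a, C8b and C4bp, along with Mbl1, Mbl2 and Fcnb of the lectin route, were at 0 counts in all 16 libraries, which allows up to 3 counts in each. C7 and C6 of the membrane attack complex were present without a DESeq2 call in the fit of all libraries. C7 had group means from 307 to 908 normalized counts and C6 from 29.1 to 196. In the fit without the 4 macrophage-rich libraries, C7 was called higher in Aged Sham than in Young Sham (1.45, DESeq2 adjusted p = 0.042). Vtn was called lower (-1.95, DESeq2 adjusted p = 0.0038). Those 4 libraries are in neither of the compared groups. Of 8 pericyte and smooth muscle markers 3 were called lower between the sham groups, and their part in the Vtn value was not tested. The proteases that accompany C1q were also present, C1ra at group means of 1433 to 2552 and C1s1 at 318 to 593 normalized counts, and neither was called in any comparison.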

How the data were processed

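RNA of 16 libraries of sorted lung ECs (Young Sham, Young Bleo, Aged Sham and Aged Bleo) was analysed. The authors aligned reads to mm10 with STAR (2.5.2b) and counted them per gene with Subread featureCounts, per the submitters' processing notes. For each of 43346 genes and each library the deposited table gives raw counts beside FPKM, and the authors' FPKM divides counts by gene length and library total. Strandedness, multimapped reads and the annotation release are not given in the sources used here. The labels name a SMART-Seq and Nextera preparation and the study's methods a TruSeq preparation with poly(A) selection, a disagreement that was not resolved here.

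Deposited counts were tested with DESeq2 (1.42.0, R 4.3.3), the tool named in the study's methods, by Wald tests of unshrunken log2 fold changes in a single model of all libraries with group as its term. P-values were adjusted over all tested genes by the Benjamini-Hochberg method. A gene was called at an adjusted p no higher than 0.05 with a log2 fold change of 0.5 or more in size, in 5 pairwise comparisons and the difference of the bleomycin responses. Intervals are 95% Wald intervals. Alternatives were edgeR (4.0.16), limma (3.58.1) voom and trend on log2(FPKM + 0.1) and log2(FPKM + 1), a mean count minimum of 10, TMM scaling, the compared groups alone, and each library left out. The scripts were tested on simulated data. The members and the lists of other genes were chosen with earlier results of these data known. All members are named in every comparison. Of other complement genes every called gene is named, with values for at most 6 per comparison by mean level, and C1ra, C1s1, C4a, C6 and C7 were named after their values were seen. Where a whole group was at or under 3 counts, no fold is given. Genes were matched by symbol, and Adgre1 and Cd55b by identifier.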

Additional observations from a re-analysis of the deposited data

Results flagged for a closer look

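Young Sham replicate 25 held 553 normalized counts of Cd55 and stood apart from the other 4 Young Sham libraries. Its gap to the nearest library took up 0.762 of the range of the group. It was the 1 such library in 27 checks of a member within a group, of which chance gives about 1 in 20.

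The bleomycin response of 3 members differed between ages by a test of the difference itself (DESeq2 Wald test, aged minus young). The difference was -2.20 for C3 (adjusted p = 0.016), -2.83 for C2 (adjusted p = 0.00023) and -1.73 for Serping1 (adjusted p = 0.014) on the log2 scale. For C3 and C2 the young response was a called rise and the aged value was not called, and for Serping1 the aged response was a called fall and the young value was not called. None of the 3 was called by edgeR (adjusted p = 0.34 for C3, 0.13 for C2 and 0.34 for Serping1), in limma voom or on either FPKM scale. The call of C3 was lost without Aged Sham replicate 14 or Young Bleo replicate 17, and that of Serping1 without Young Bleo replicate 19. The cause of these differences was not tested.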

How the results depend on the processing

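Counts of called members other than C1q were least stable between the sham groups and for the difference of responses. Against 5 in Aged Sham versus Young Sham, edgeR called 3, limma voom 2, and limma trend 1 on log2(FPKM + 0.1) and 0 on log2(FPKM + 1). In Aged Bleo versus Young Sham log2(FPKM + 1) called 2 instead of 4. The difference of responses gave 0 instead of 3 in edgeR, voom and both FPKM fits. Called C1q chains went from 3 to 0 in voom and on log2(FPKM + 1) for Young Bleo versus Young Sham, in voom for Aged Bleo versus Young Sham, and in edgeR, voom and both FPKM fits for Aged Bleo versus Aged Sham.

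Of the other complement genes, Aged Sham versus Young Sham gave 2, but 0 in edgeR, voom and on log2(FPKM + 0.1), and 4 with the compared groups alone. Young Bleo versus Young Sham gave 9, but 2 in voom and 3 on log2(FPKM + 1). Aged Bleo versus Young Sham gave 9, but 4 in voom and 5 in both FPKM fits. Aged Bleo versus Aged Sham gave 6, but 1 in edgeR, 0 in voom, 3 and 2 in the FPKM fits and 2 with the compared groups alone. Aged Bleo versus Young Bleo gave 1, but 0 in edgeR and voom, and the difference of responses gave 1, but 0 in edgeR, voom and both FPKM fits. A mean count minimum of 10 and TMM scaling moved no count of called genes by over 1.5 times. The cause of these differences was not tested.

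With 1 library left out, called members other than C1q ranged from 4 to 5 in Aged Sham versus Young Sham and in Aged Bleo versus Young Sham, and from 2 to 4 for the difference of responses. Called C1q chains ranged from 0 to 3 in Aged Bleo versus Aged Sham. Called other complement genes ranged from 1 to 3 in Aged Sham, 6 to 12 in Young Bleo and 6 to 9 in Aged Bleo, each versus Young Sham, from 2 to 9 in Aged Bleo versus Aged Sham and from 1 to 2 in Aged Bleo versus Young Bleo.

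Signs changed only for values that were not called. With 1 library left out, C1qa was at -0.21 to 1.93 in Aged Sham versus Young Sham, Cd55 at -0.073 to 0.63 in Aged Bleo versus Aged Sham, and C4b at -0.47 to 0.20 in Aged Bleo versus Young Bleo. The difference of responses was -0.56 to 0.15 for Cd55, -0.13 to 2.01 for C1qa and -0.89 to 0.77 for C1qc. It was also -0.81 for C1qa and -1.86 for C1qc in voom, and 0.47 for C1qb on log2(FPKM + 1). Without Aged Bleo replicates 1 and 2 and Young Bleo replicates 17 and 18, chosen after seeing the data, Serping1 was at 0.29 in Aged Bleo versus Young Sham, C4b at 0.21 and Cd55 at -0.34 in Aged Bleo versus Aged Sham, and C4b at 0.29 and Cd55 at -0.53 in Aged Bleo versus Young Bleo, and the difference of responses was -0.21 for C1qa and -1.30 for C1qc. In that setting the number of called members other than C1q was 4, 4, 1 and 0 in the comparisons of Young Bleo and Aged Bleo with Young Sham, and of Aged Bleo with Aged Sham and with Young Bleo, and 2 for the difference of responses. Called C1q chains were 1 instead of 0 in Aged Sham versus Young Sham, 1 instead of 3 in both Bleo groups versus Young Sham and 0 instead of 3 in Aged Bleo versus Aged Sham. Called other complement genes were 4 instead of 2 in Aged Sham versus Young Sham. They were 3 instead of 9 in Young Bleo and 2 instead of 9 in Aged Bleo, each versus Young Sham. They were 1 instead of 6 in Aged Bleo versus Aged Sham and 0 instead of 1 in Aged Bleo versus Young Bleo. The libraries left out are in neither sham group.

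The median log2 fold change of all genes on log2(FPKM + 0.1) was -0.12 in Aged Sham versus Young Sham and 0.12 in Aged Bleo versus Aged Sham, beside 0.02 and 0.01 in DESeq2. No paired analysis was possible because the replicate numbers do not repeat between groups. Depth limits the C1q chains most in the Young Sham libraries, where they held 6 to 60 counts in all.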
